A study of Danio rerio with 2 samples.

Results

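The genes described here encode the general transcription machinery and Mediator in hearts of adult zebrafish. They were taken by name: every gene whose single symbol in the array's annotation starts with polr (RNA polymerase subunits) or gtf (general transcription factors), or is med (Mediator) or taf (TBP-associated factors) followed by a number. No measured value was used. The rule gave 72 of the 8793 genes with a single symbol on the array, and 88 probe sets. Of these genes, 20 encode polymerase subunits, 9 general factors of RNA polymerase II, 7 the polymerase III factors TFIIIA and TFIIIC, 15 TAFs and 21 Mediator subunits. Where a gene had several probe sets, the one with the highest mean over the 2 arrays stood for it.

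RNA polymerase I makes the precursor of most ribosomal RNAs, polymerase II messenger RNA, and polymerase III transfer RNA and the shortest ribosomal RNA. Polymerase II starts at a promoter with TFIIA, TFIIB, TFIID, TFIIE, TFIIF and TFIIH. Among these TFIID, made of the TATA-binding protein and TAFs, recognises the promoter and TFIIH opens the DNA. Mediator joins DNA-bound activators to this assembly through its head, middle and tail modules, to which a kinase module can bind. The roles named below are those known for the yeast or human proteins.

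The 2 groups were an atropine pool and a water pool. Both held whole hearts of adult fish from which about 20% of the ventricle, at its apex, had been cut away, and both were collected 24 hours after the amputation. One set of fish was kept in atropine, which blocks muscarinic acetylcholine receptors, and the other in water. Each pool of 15 hearts was measured on 1 Affymetrix expression array, so nothing here could be tested against the spread between samples, no p-value is given, and each value describes these 2 pools only. The labels state no strain, no age beyond adult and no atropine dose.

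The values are the authors' deposited levels on a log2 scale, 1 per probe set and array. A difference is the level in atropine minus the level in water. Detection calls were not used here, so a floor on the level stood in for them: a gene was compared if its higher level reached 4.05, the median over all values. Levels of different probe sets are not set against each other, since probes bind with unlike strength.

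Markers of several cell types differed between the pools. The marker lists were chosen with earlier results of these data known. Listed markers not found on the array are left out: the 13 cardiomyocyte markers became 6 and the 9 red blood cell markers 7. Of all genes past the filter, 2.12% were at least 1.5-fold lower in atropine and 1.87% at least 1.5-fold higher. All 7 neutrophil markers passed the filter, with a mean level of 6.79 in atropine and 7.60 in water. Of these 7, 6 were at least 1.5-fold lower in atropine. All 7 red blood cell markers passed, with a mean level of 9.41 in atropine and 8.73 in water, and 4 were at least 1.5-fold higher. Of the 6 cardiomyocyte markers 2 were at least 1.5-fold lower, with a median difference of -0.16. Macrophage markers had a median difference of -0.79 over 6 genes, smooth muscle markers one of -0.47 over 2, and endothelial markers one of -0.03 over 4. The 4 epicardial and fibroblast markers past the filter had a median difference of -0.87. Among the 6 measured epicardial and fibroblast markers wt1a and tbx18 stood under the filter, with differences of -0.12 and 0.26. The part of such shifts in cell makeup in the differences below was not tested, and in pooled whole hearts fewer cells of a type and less RNA per cell cannot be told apart. The 13 polyadenylated spike-in probe sets past the filter were all lower on the atropine array, by a median of -0.48. The 5' actin control probe sets differed by -1.03 and -0.82, the middle one by -0.48 and the 3' one by -0.58. The 5' and 3' GAPDH control probe sets differed by 0.17 each and the middle one by 0.18.

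Few genes of the transcription machinery differed much between the 2 pools, as was so for genes in general: 6.78% of those compared were at least 1.3-fold apart, beside 12% of all genes. Of the 72 genes 59, or 81.9%, passed the level filter, against 60.2% of all genes. The median of their differences was 0.05, the standard deviation across genes was 0.21, and the quartiles were -0.03 and 0.17. Over all 5294 genes past the filter the median was -0.01, the standard deviation 0.27 and the quartiles -0.16 and 0.13. Of the 59 genes, 27 (45.8%) lay within 0.1 of 0, against 36.2% of all genes.

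Past a 1.5-fold difference stood 1 gene of the machinery, gtf2a1, which was higher in atropine. That is 1.69% of the 59, beside 1.87% of all genes at least 1.5-fold higher. No gene of the 59 was at least 1.5-fold lower, beside 2.12% of all genes, though med25 lay just short of it. At 1.3-fold there were 4 of 59 genes apart in either direction (6.78%), beside 12% of all genes. The 1 higher was gtf2a1 and the 3 lower were med25, gtf2h5 and med7. Small differences leaned toward higher values in atropine: 39 of 59 were above 0 (66.1%), beside 47.8% of all genes, and 20 below 0, beside 52% of all genes. The 39 include gtf2h1, which passed the filter only through its higher level in atropine. With no replicate these shares are a description of 2 arrays.

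**Figure D1:**
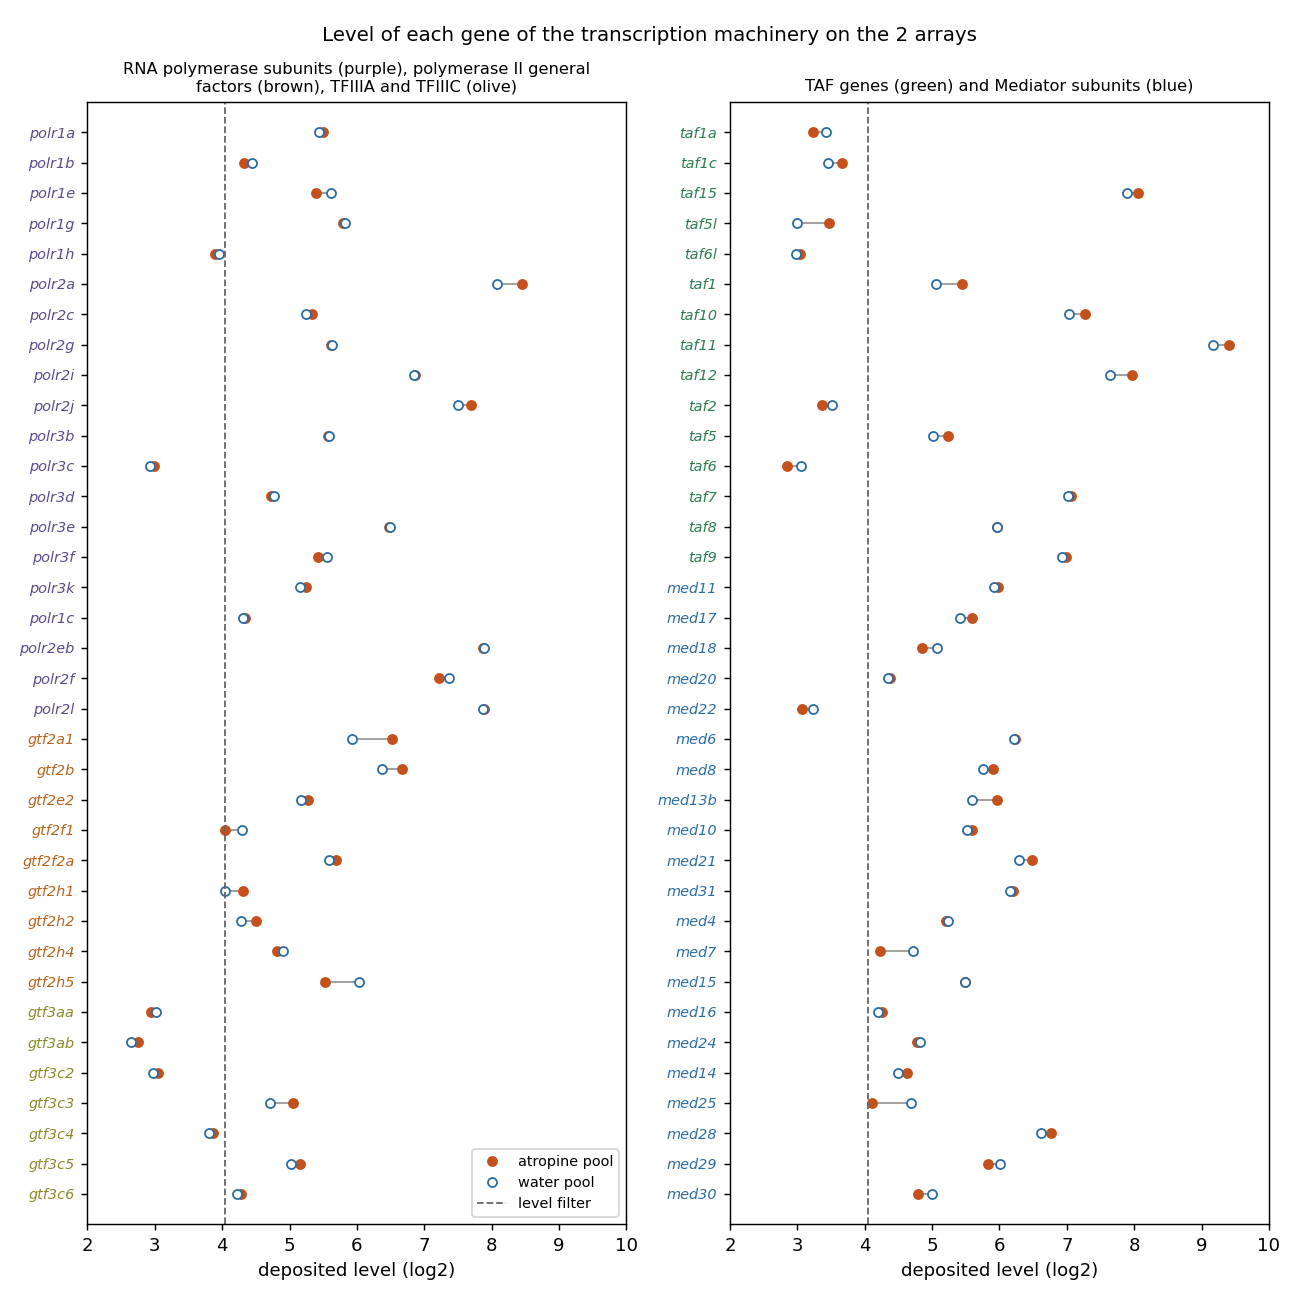
Deposited level (log2, x axis) of each of the 72 genes in the atropine pool (filled points) and in the water pool (open points), with the level filter of 4.05 as a dashed line. In most genes the 2 points overlap or nearly so, and the longest gaps among genes right of the line are those of gtf2a1, med25, gtf2h5 and med7.

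**Figure D2:**
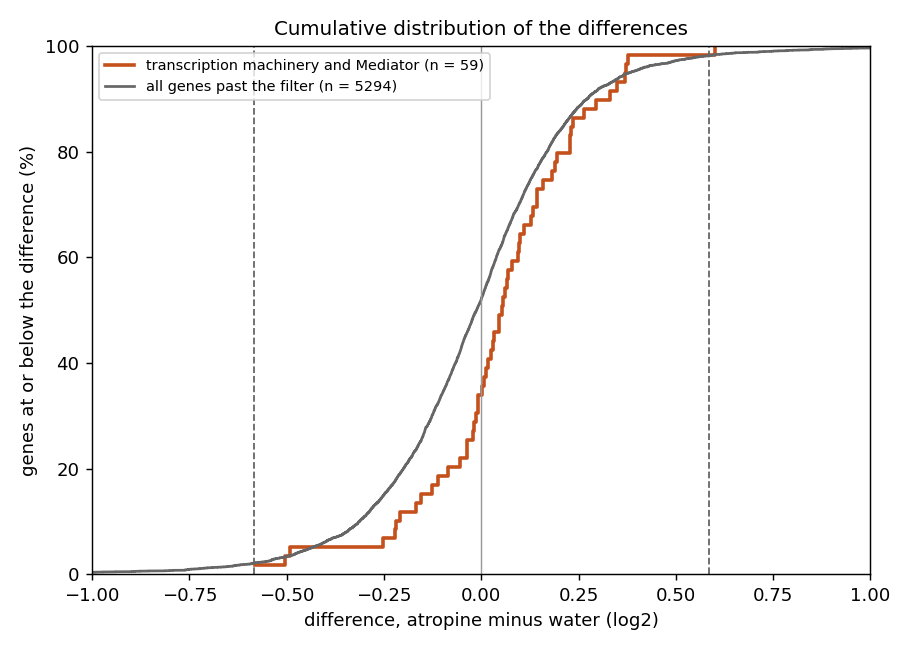
Share of genes (y axis, percent) at or below each difference (x axis, log2, atropine minus water) for the 59 genes of the machinery and for all 5294 genes past the filter. The dashed lines mark 1.5-fold, and the few genes beyond 1 in either direction lie outside the axis. The curve of the machinery runs to the right of the other near 0, where its median is 0.05 against -0.01.

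The subunits of the 3 nuclear RNA polymerases mostly lay close to 0, with polr2a apart. Among the 18 that passed, 8 were above 0 and 10 below, beside 47.8% and 52% of all genes. The median of the 18 was -0.01 and the standard deviation 0.13. The median lay between -0.01 and 0.02 under the other centrings, filters and probe set rules and with the offset, and so has no direction, and a scaling to the spike-ins, which raises every gene alike, put it at 0.47. None of the 18 was 1.3-fold apart, beside 12% of all genes.

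Polymerase II genes ranged most. The gene polr2a, which encodes the largest, catalytic subunit with the tail repeats that are phosphorylated during transcription, had a level of 8.45 in atropine and 8.08 in water. It was thus 1.29-fold higher in atropine, and 5.31% of all genes past the filter had a difference as high or higher. A further polr2a probe set gave 7.39 in atropine and 7.16 in water, a difference of 0.24 in the same direction. The third was at 2.90 in atropine and 2.84 in water, under the filter. Among the other polymerase II subunits polr2j, part of the assembly platform, stood at 7.69 in atropine and 7.50 in water. Its partner in that platform, polr2c, differed by 0.09 and the small subunit gene polr2i by 0.02. The stalk subunit gene polr2g had 5.618 in atropine and 5.632 in water, a difference of -0.01. Without polr2a the median of these 4 genes was 0.06.

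Of the 4 polymerase I genes that passed, 3 were lower in atropine, beside 52% of all genes, and the median was -0.07. So few genes give no direction. The lowest was polr1e, at 5.40 in atropine and 5.62 in water, a difference of -0.22. It encodes 1 of a pair of subunits of which polr1g encodes the other, and polr1g differed by -0.04, with -0.22 on its other probe set. The catalytic subunit genes polr1a and polr1b differed by 0.05 and -0.11. Another gene, polr1h, whose product takes part in cleaving the nascent RNA, stood just under the filter at 3.89 in atropine and 3.96 in water.

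Polymerase III genes had a median of -0.02 over 5 genes and differed by no more than 0.13 in size. The lowest was polr3f, a subunit used at initiation, at 5.43 in atropine and 5.56 in water. The highest was polr3k, the counterpart of polr1h in polymerase III, at 5.25 in atropine and 5.15 in water. The catalytic subunit gene polr3b and the genes polr3d and polr3e, whose products form a pair, differed by -0.01, -0.04 and -0.02. The sixth gene, polr3c, was under the filter.

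Subunits that several polymerases share differed by no more than 0.15 in size. The genes polr2eb and polr2l, whose products sit in all 3 enzymes, differed by -0.01 and 0.03. The shared subunit gene polr2f had 7.22 in atropine and 7.37 in water, a difference of -0.15, and polr1c, shared by polymerases I and III, one of 0.03.

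The general factors of polymerase II were the most divided class. All 9 passed the filter, 6 above 0 and 3 below, beside 47.8% and 52% of all genes. Their standard deviation of 0.33 stood beside 0.27 over all genes. Their median was 0.11. Both the 6 and this median include gtf2h1, which passed only through its higher level in atropine and so could only count as higher.

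At the high end stood the 2 genes taken for TFIIA and TFIIB, factors that hold the TATA-binding protein and polymerase at the promoter. The gene gtf2a1, which encodes the precursor of the large TFIIA subunits, had a level of 6.53 in atropine and 5.93 in water. It was 1.52-fold higher in atropine, and 1.70% of all genes had a difference as high or higher. When 16 was added to the linear values before the logarithm, an offset that damps low readings, its difference of 0.60 became 0.49, under 1.5-fold. The gene gtf2b, encoding TFIIB, had 6.66 in atropine and 6.37 in water, 1.23-fold higher.

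TFIIH genes differed among themselves. The gene gtf2h5, whose small product steadies the TFIIH core and serves in DNA repair as well, had 5.53 in atropine and 6.04 in water. It was 1.42-fold lower in atropine, and 3.29% of all genes had a difference as low or lower. With the offset its difference of -0.50 became -0.39. The core subunit gene gtf2h2 had 4.50 in atropine and 4.28 in water, a difference of 0.23. Another core gene, gtf2h1, had 4.31 in atropine and 4.044 in water, a difference of 0.26 that became 0.14 with the offset. Its level in water was under the filter, so it was compared only through its higher level in atropine and does not bear on the direction of the class. A further core gene, gtf2h4, differed by -0.08.

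Of TFIIE and TFIIF genes, gtf2e2 differed by 0.11. The gene gtf2f1, encoding the larger TFIIF subunit, was among the 3 genes nearest above the filter, at 4.046 in atropine and 4.30 in water, and its difference of -0.25 became -0.13 with the offset. The smaller TFIIF subunit gene gtf2f2a had 2 probe sets that disagreed. The one used gave 5.68 in atropine and 5.58 in water, a difference of 0.10, whereas the other gave 5.30 in atropine and 5.65 in water, a difference of -0.35. No direction can therefore be given for gtf2f2a.

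**Figure D3:**
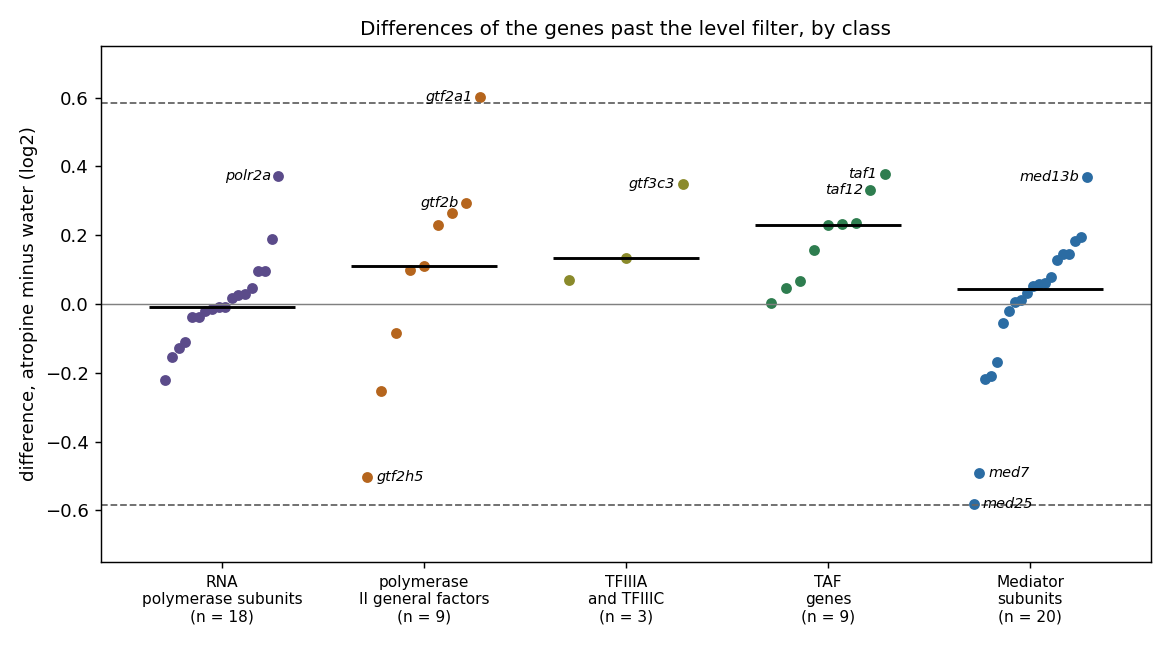
Difference (log2, atropine minus water, y axis) of each of the 59 genes past the filter, by class, with the class median as a black bar and 1.5-fold as dashed lines. All 9 TAF genes lie at or above 0, the 18 polymerase subunits cluster around 0 with polr2a apart, and the general factors of polymerase II spread from gtf2h5 to gtf2a1.

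The TAF genes lay to the high side. All 9 that passed the filter were above 0, beside 47.8% of all genes, with a median of 0.23. However, none was 1.3-fold apart, beside 12% of all genes, and taf8 was at 0.00. The lowest and highest differences of the 9 were 0.00 and 0.38. Under the filter the 6 remaining TAF genes were mixed, so the count holds for those past the filter only.

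The 8 TFIID genes among them had a median of 0.23. The gene taf1, which encodes the largest TFIID subunit, had 5.44 in atropine and 5.06 in water. It was 1.299-fold higher, just under the 1.3-fold line, and 5.16% of all genes had a difference as high or higher. With the offset its difference of 0.38 became 0.27. The histone-fold subunit gene taf12 stood at 7.97 in atropine and 7.64 in water, and taf10, whose product is found in the coactivator SAGA too, at 7.27 in atropine and 7.03 in water. These 2 genes differed by 0.33 and 0.24.

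Another histone-fold subunit gene, taf11, gave higher values in atropine on all 3 of its probe sets. The one used read 9.40 in atropine and 9.17 in water, and the 3 differences were 0.23, 0.09 and 0.16. The one used is of a type that can take up related transcripts. Without probe sets of that type the difference of taf11 was 0.09. The gene taf5, encoding a scaffold subunit, had 5.24 in atropine and 5.01 in water. Near 0 were taf9 at 0.07, taf7, whose product binds that of taf1, at 0.04, and taf8. Of the same complex taf2 and taf6 were under the filter, at 3.36 and 2.85 in atropine and at 3.51 and 3.06 in water. Both read lower in atropine, at levels where the reading may be background.

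The gene taf15, which encodes an RNA-binding protein rather than a core TFIID subunit, had 8.05 in atropine and 7.90 in water, a difference of 0.16. The SAGA-type genes taf5l and taf6l were under the filter. The first read 3.46 in atropine and 3.001 in water, a difference of 0.46, likewise at a low level. The polymerase I factor genes taf1a and taf1c, subunits of SL1, were under the filter as well, with differences of -0.19 and 0.22.

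The 3 TFIIIC genes that passed were all higher in atropine, by small amounts, beside 47.8% of all genes above 0. With only 3 genes no direction can be given. The gene gtf3c3 had 5.05 in atropine and 4.70 in water, 1.27-fold higher, and its difference of 0.35 became 0.23 with the offset. The genes gtf3c5 and gtf3c6 differed by 0.13 and 0.07. The remaining 4 of the 7, among them both TFIIIA genes, gtf3aa and gtf3ab, were under the filter. Of these gtf3c4 came nearest to it, at 3.87 in atropine and 3.81 in water.

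Mediator genes centred near 0, with a median of 0.04 over the 20 of 21 that passed. Of the 20, 13 were above 0 and 7 below, beside 47.8% and 52% of all genes. The standard deviation of the 20 was 0.23. At least 1.3-fold apart were 2 of the 20, both lower in atropine, beside 6.91% of all genes lower by that much and 12% apart in either direction.

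The gene med25, whose product is a contact for transcription activators, had 4.10 in atropine and 4.69 in water. It was 1.495-fold lower in atropine, and 2.15% of all genes had a difference as low or lower. The probe set of med25 is of a type that can take up related transcripts, and with the offset its difference of -0.58 became -0.33. The gene med7, which encodes a subunit of the middle module, had 4.22 in atropine and 4.71 in water, 1.41-fold lower. With the offset its difference of -0.49 became -0.28. Neither gene had another probe set.

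At the other end stood med13b, a gene named for the subunit that ties the kinase module to the core. It had 5.96 in atropine and 5.59 in water, 1.29-fold higher, and 5.36% of all genes had a difference as high or higher. It was the only gene of the kinase module that the name rule took.

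The 6 head module genes past the filter had a median of 0.04. The scaffold gene med17 had 5.60 in atropine and 5.42 in water, the highest difference there at 0.18, and med18 the lowest at -0.22, with 4.85 in atropine and 5.07 in water. Its partner med20 differed by 0.03. Differences for med6, med8 and med11 were 0.01, 0.14 and 0.06, and med22 was under the filter, with probe sets at -0.18 and 0.27.

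In the middle module med7 stood apart from the genes of its neighbours. The gene med21, whose product pairs with that of med7 to form a hinge, had 6.48 in atropine and 6.29 in water, a difference of 0.19. The genes med10, med31 and med4 differed by 0.08, 0.05 and -0.02. Tail genes hardly differed, with med15 at 0.01, med16 at 0.06 and med24 at -0.06.

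The backbone gene med14 differed by 0.13, with 4.62 in atropine and 4.49 in water. Of the subunits first known from animal Mediator, med29 and med30 were lower, at -0.17 and -0.21. For med28 the probe sets disagreed. The one used, of a type that can take up related transcripts, gave 0.14, and the others gave 0.16 and -0.17. No direction can therefore be given for med28.

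Probe sets of 1 gene allowed a check of the reading itself. Of the 12 genes with several, 7 had more than 1 past the filter, and in 5 of these 7 all such probe sets shared a direction. The like share over all genes with several probe sets was not computed, so 5 of 7 is a description only. The 5 were polr2a, taf11, med10, med4 and polr1g, and the other 2 gtf2f2a and med28. As they read the same pair of RNA pools, they bear on measurement only. The gap between the 2 gtf2f2a probe sets was 0.45. A gap in 1 gene does not measure the error of other genes. The genes at least 1.3-fold apart, gtf2a1, med25, gtf2h5 and med7, each had 1 probe set, so their readings could not be checked this way. They are 6.78% of the 59, beside 12% of all genes.

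**Figure D4:**
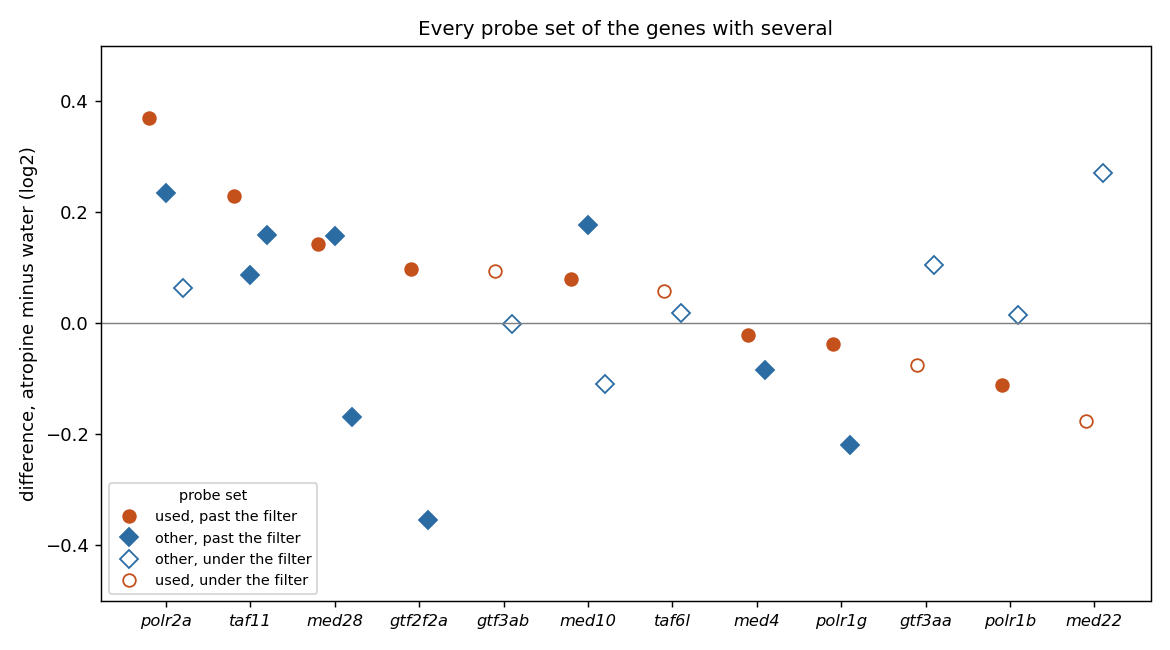
Difference (log2, atropine minus water, y axis) of every probe set of the 12 genes with several. Circles are the probe sets used, diamonds the others, and open marks stood under the filter. All 3 taf11 probe sets lie above 0, whereas those of gtf2f2a and med28 lie on both sides.

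Genes that work with this machinery but do not carry its names were taken from a list of 83 symbols, of which 58 were on the array. Of the 47 past the filter 34 were above 0 and 12 below, beside 47.8% and 52% of all genes. Their median was 0.12 and their spread 0.20 (SD across genes). The genes ercc2 and rrn3, both among the 34, were under the filter in water. They passed only through their higher level in atropine, so they could only count as higher. None of the 47 was at least 1.5-fold apart. At least 1.3-fold higher in atropine were 3 (beside 5.12% of all genes), ercc2 among them. At least 1.3-fold lower was 1 (beside 6.91%). The TATA-binding protein gene tbp was listed at 5.36 in both pools. The TFIIH helicase gene ercc2 had 4.48 in atropine and 3.99 in water, 1.41-fold higher, from a level under the filter in water. The other helicase gene of TFIIH, ercc3, differed by 0.11 and the TFIIH kinase gene cdk7 by -0.19. With gtf2h5 included, TFIIH genes spanned from -0.50 to 0.49, the upper end being ercc2.

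Among the listed genes whose products act after initiation, the P-TEFb kinase gene cdk9 had 6.64 in atropine and 6.44 in water, and its cyclin genes ccnt1, ccnt2a and ccnt2b differed by 0.36, 0.24 and 0.13. The P-TEFb inhibitor gene hexim1 differed by 0.26. Of the pausing factor NELF, nelfa, nelfb and nelfe differed by 0.29, 0.21 and 0.09 and nelfcd by -0.15. The elongation factor gene tcea2 was the lowest of the list, at 4.21 in atropine and 4.66 in water, 1.36-fold lower, and its relative tcea1 differed by -0.09. The histone chaperone subunit gene ssrp1a and the elongation factor gene eaf1 were also below 0, at -0.31 and -0.18. The Mediator kinase gene cdk8 differed by 0.12.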

How the data were processed

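Total RNA from 2 pools of 15 hearts was labelled with the Affymetrix 3' IVT Express kit, per the labels' protocols. The authors deposited a table with a log2 value for each probe set on each array. That it is log2 was taken from its range, 2.02 to 14.05, since no source used here names the scale or the normalization. After sorting, the values of both arrays never lay more than 0.15 apart, as when overall levels are set equal, so differences are relative to other genes.

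Of 15502 non-control probe sets, 10795 had 1 symbol in the platform annotation, 135 several and 4572 none. All 72 genes were found under the same symbol in a RefSeq table of the GRCz12tu assembly. No coordinates are given, because the annotation names no build, and no sequences were used here.

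Differences were taken without re-centring, and folds were computed as 2 raised to the absolute difference. With 1 array per group no test was possible. Genes named were those at least 1.3-fold apart, the highest and lowest of each group, those with several probe sets and the 3 nearest the filter on each side; others are given to account for every gene. Genes and lists were chosen with earlier results of these data known. The counting was checked on simulated data with added differences well past the 1.5-fold line, so that check covers the code and not genes near the line. Alternatives were median centring, quantile normalization, loess (span 0.4), other filters, an offset of 16, other probe set rules, current symbols and thresholds of 1.3-fold and 2-fold. Python 3.11.15, numpy 2.4.6, pandas 2.3.3 and statsmodels 0.14.6 were used.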

Additional observations from a re-analysis of the deposited data

How the results depend on the processing

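Under 9 planned settings the median of the machinery lay between 0.04 and 0.07. That of the TAF genes lay between 0.16 and 0.24 and that of Mediator between 0.03 and 0.05. With the filter at the upper quartile (5.98) 21 genes remained, of which 5 were below 0. The share of all genes below 0 was not computed at that filter, so no lean is read from the 5. The median of the 21 was 0.07, beside -0.02 over all genes. Of the polymerase II general factors only gtf2a1, gtf2b and gtf2h5 were left, so their median of 0.29 was the value of gtf2b. The number of genes at least 1.5-fold higher was 0 with the offset of 16, beside 1.15% of all genes. None was at least 2-fold higher, beside 0.40% of all genes, and 3 were at least 1.3-fold lower, beside 6.91%. Among 279 values of named genes under planned settings, 11 moved by more than 0.1. Many of the 279 could not move, since the other filters and current symbols leave the difference of a gene as it was. The other probe set rules likewise leave a gene with 1 probe set of the plain type unchanged. Most of the 11 came with the offset of 16, among them those of gtf2a1, med25, gtf2h5 and med7. A scaling to the polyadenylated spike-ins, added after seeing the data, raised every value by the same amount and put the median of all genes at 0.47. The machinery then had a median of 0.53, with 21 genes at least 1.5-fold higher, beside 28.6% of all genes, and 3 below 0. The share of all genes below 0 was not computed under this scaling, so nothing is read from the 3. The class medians were 0.47 for polymerase subunits, 0.59 for polymerase II general factors, 0.61 for TFIIIC, 0.71 for TAF genes and 0.52 for Mediator. No paired analysis was possible because each group has 1 array.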

Other observations

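Regulators of polymerases I and III from the same list of partner genes were not all alike. The genes maf1a and maf1b, whose products repress polymerase III, were both higher in atropine, with 7.20 and 7.14 in atropine and 6.89 and 6.74 in water, or 1.24-fold and 1.32-fold. The polymerase I factor gene ubtf differed by 0.26, while its relative ubtfl differed by -0.28. Another polymerase I initiation factor gene, rrn3, stood near the filter at 4.19 in atropine and 4.03 in water. Its level in water was under the filter, so it was compared only through its level in atropine. The polymerase-assembly gene rpap1 was 1.31-fold higher, and rpap3 differed by -0.25. The mitochondrial transcription factor gene tfam differed by 0.04.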
